A study of Mus musculus with 14 samples.

Results

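The genes described here encode histone modifying enzymes, Polycomb and heterochromatin proteins, and chromatin remodelers. They were taken as a list of 42 gene symbols, without reference to DNA methylation genes, and every array probe annotated to one of those symbols was followed. Of the 42 genes, 39 had a probe, 64 probes in all, and 29 were measured well enough to be tested, among 8669 units tested over the whole array (a unit is 1 gene symbol, or 1 probe without a symbol). The data came from 14 Illumina bead arrays of 1 colour, each hybridised with RNA of a mouse sample, in a study whose title concerns intracytoplasmic sperm injection and embryo culture. HTF/MultiBlast was a group of 3 arrays titled MultiBlast/HTF with multiblastocyst as the cell type, and the labels do not say what MultiBlast stands for. ISM1/ISM2 held 3 arrays of blastocysts cultured in those media, and KSOM(aa) held 2 arrays of blastocysts cultured in that medium. The micromanipulation control had 3 arrays, which all carry replicate number 1 in their descriptions and may be repeats of 1 sample. Oviduct, the group against which the 4 others were set, had 3 arrays whose cell type is given as oviduct. Strain, embryo age and the number of embryos pooled are not stated in the labels, so p-values measure the spread between these arrays. The control arrays, which may not be separate samples, enter the variance shared by all comparisons.

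Histone modifiers add or remove acetyl and methyl groups on the histone tails that package DNA. Acetylation and H3K4 methylation mark active genes, while H3K9 methylation, read by heterochromatin protein 1, and H3K27 methylation, written by Polycomb repressive complex 2 (PRC2), mark silent ones. Remodelers such as SWI/SNF and CHD proteins use ATP to slide or evict nucleosomes. In the mouse blastocyst these systems are known for silencing retroviral elements, for X inactivation and for keeping the inner cell mass and trophectoderm programmes apart.

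The RNA came from whole samples, so fewer cells of a type and less RNA per cell cannot be told apart. Between 8533 (33.2% of 25697) and 10188 (39.6%) probes were detected per array, both extremes in the oviduct group, and precision is limited by how few arrays each group has. The 5 groups carried blastocyst transcripts. Of the marker lists, 10 of 10 trophectoderm, 7 of 8 epiblast and 10 of 10 primitive endoderm genes were detected on at least 1 array, with *Fgf4* dark throughout. The oviduct epithelium markers *Ovgp1*, *Tppp3*, *Pax8* and *Krt5* were detected on 0 of 14 arrays, in the oviduct group too, and *Foxj1* on 3 arrays. The markers *Pdgfrb*, *Dcn* and *Myh11* of stroma and smooth muscle, *Ptprc* and *Hba-a1* of blood, and *Has2*, *Fshr* and *Ptx3* of cumulus cells were likewise detected on 0 arrays, while *Acta2* of smooth muscle was detected on 5. *Lyz2* of macrophages was detected on 1 array, oviduct replicate 3, where it measured 8.37, beside 4.32 to 5.16 on the 13 others.

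Some arrays of the same group stood far apart. Over the 29 tested chromatin genes, the 2 KSOM(aa) arrays differed by a root mean square of 1.00 on the log2 scale. Arrays of the same group elsewhere differed by 0.19 to 0.69, the widest of these pairs being oviduct replicates 1 and 3. Over all units that oviduct pair differed by 0.83 and the KSOM(aa) pair by 0.81. Over the 29 genes KSOM(aa) replicate 1 lay nearest to HTF/MultiBlast replicate 1 (0.40) and KSOM(aa) replicate 2 nearest to oviduct replicate 1 (0.46). Over all units KSOM(aa) replicate 1 lay nearest to control replicate 3 (0.48) and KSOM(aa) replicate 2 nearest to oviduct replicate 2 (0.58). Results with KSOM(aa) are therefore given with both arrays and, where the call changes, with 1 of them left out. Without oviduct replicate 3, the genes called in ISM1/ISM2 against oviduct still passed, with adjusted p-values of 0.00777 for *Cbx1*, 0.0201 for *Setdb1*, 0.0292 for *Kdm4c*, 0.0256 for *Hdac3* and 0.0134 for *Chd4*, and the call of *Prmt5* in HTF/MultiBlast did not hold (0.0931).

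Most of the list was transcribed in the blastocyst samples at a detectable level, and the arrays left a definite set of genes unmeasured. Of the 64 probes, 28 (43.8%) were detected at a detection p under 0.01 on all 14 arrays, 7 (10.9%) on 2 to 13 arrays and 29 (45.3%) on 0 or 1 array. Over all 25697 probes these shares were 28%, 14.7% and 57.3%. No probe was listed under *Suv39h1*, an H3K9 methyltransferase, *Kdm2a*, a demethylase, or *Crebbp*, an acetyltransferase related to p300, in the annotation used here. Another 10 genes had probes but no more than 1 array with a detection call. They were the heterochromatin proteins *Cbx3* and *Cbx5*, the demethylases *Kdm2b* and *Kdm4a*, the arginine methyltransferase *Carm1*, the SWI/SNF subunits *Smarcc1*, *Smarcd1* and *Arid1a*, the remodeler *Chd1* and the NuRD subunit *Mta1*. Both *Kdm4a* probes were detected on the same array, oviduct replicate 3, at 7.11 and 6.58, beside 4.30 to 5.28 on the 13 others. A dark probe bounds the signal of that probe and says nothing of transcripts the probe does not match. *Chd4* and *Ehmt1* each had dark probes beside the 1 that was detected on 14 arrays.

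Against oviduct, ISM1/ISM2 blastocysts were the group with the most chromatin genes past the test. There 5 of the 29 genes (17.2%) passed, where 25.8% of all units did, so the share was below the background. *Cbx1* was the 1 gene that was higher, as were 14.3% of all units, and *Setdb1*, *Kdm4c*, *Hdac3* and *Chd4* were lower, as were 11.5% of all units. In HTF/MultiBlast 1 gene (3.45%), *Prmt5*, passed and was lower, where 6.18% of all units passed and 2.68% were lower. In KSOM(aa) 0 genes passed in limma, with 4 at an unadjusted p under 0.05, where 0.254% of all units passed and 12.5% had an unadjusted p under 0.05. In the micromanipulation control 0 genes passed, with 8 at an unadjusted p under 0.05, where 0.427% of all units passed and 17% had an unadjusted p under 0.05. A gene passed when its p-value, from limma and adjusted by the Benjamini-Hochberg method over all 8669 units, was under 0.05. The 4 comparisons share the oviduct arrays, so a displaced oviduct value enters all of them. Single arrays moved these counts. In ISM1/ISM2 the count was 3 without ISM1/ISM2 replicate 2, where 18.7% of all units passed. It was 6 without oviduct replicate 3 (22.3% of all units). Dropping any control array gave 4 (23.1% to 23.4%), as did dropping ISM1/ISM2 replicate 1 (18%) or HTF/MultiBlast replicate 3 (23.4%). The count rose without either KSOM(aa) array, as did the share of all units, in fits that leave 1 array in that group. In HTF/MultiBlast it was 3 without either KSOM(aa) array (9.45% of all units), and 2 without ISM1/ISM2 replicate 3 (5.92%) or oviduct replicate 2 (6.6%). It was 0 there without HTF/MultiBlast replicate 1, 2 or 3, ISM1/ISM2 replicate 2, oviduct replicate 1 or 3, or control replicate 1, 2 or 3. In those fits 2.01% (without HTF/MultiBlast replicate 1) to 6.01% (without oviduct replicate 1) of all units passed. In KSOM(aa) it was 1 without oviduct replicate 2, where 0.6% of all units passed.

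**Figure D1:**
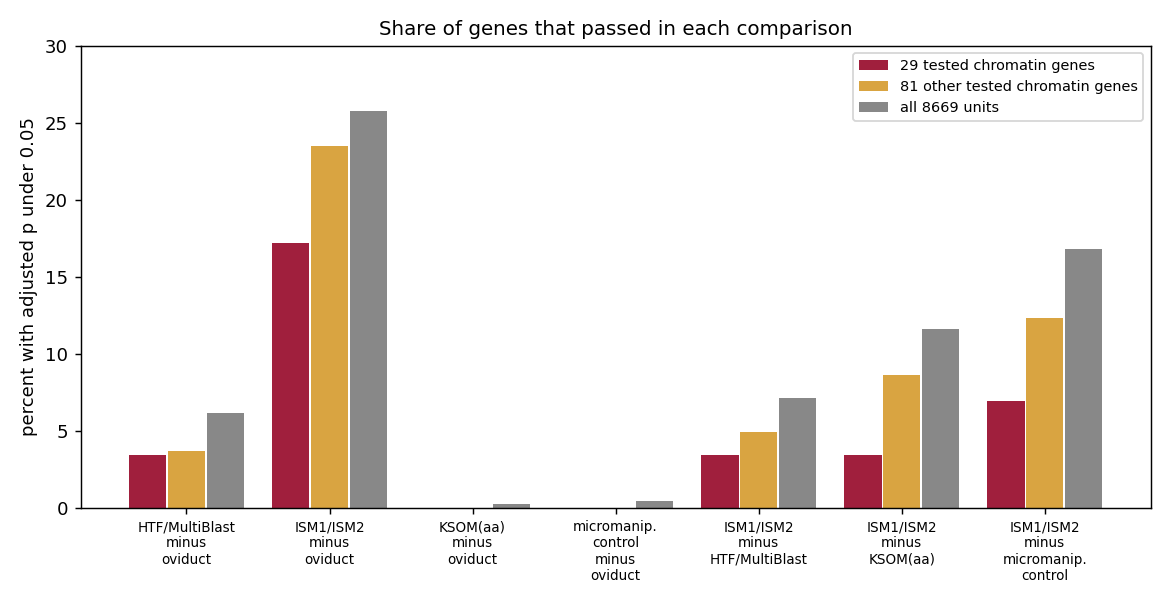
Percent of genes with an adjusted p under 0.05 in each comparison, for the 29 tested chromatin genes (left bar), 81 other tested genes of the same complexes (middle bar) and all 8669 units (right bar). In ISM1/ISM2 minus oviduct the bars stand at 17.2%, 23.5% and 25.8%, and in KSOM(aa) and the micromanipulation control minus oviduct both chromatin sets are at 0.

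The median sizes of the differences over the 29 genes were near those of the whole array in HTF/MultiBlast, KSOM(aa) and the control, and smaller in ISM1/ISM2. Their median log2 difference from oviduct was -0.11 in HTF/MultiBlast, -0.21 in ISM1/ISM2, -0.12 in KSOM(aa) and -0.02 in the micromanipulation control, where the medians over all units were 0.03 in HTF/MultiBlast, 0.02 in ISM1/ISM2, 0.01 in KSOM(aa) and 0.03 in the control. The median absolute difference was 0.30 in HTF/MultiBlast, 0.29 in ISM1/ISM2, 0.25 in KSOM(aa) and 0.31 in the control. Over all units it was 0.31 in HTF/MultiBlast, 0.43 in ISM1/ISM2, 0.26 in KSOM(aa) and 0.27 in the control. Large differences were as common in ISM1/ISM2, where 17.2% of the 29 genes and 17.4% of all units differed from oviduct by more than 1. Differences from oviduct below 0 outnumbered those above 0 in each group, with 11 genes above 0 in HTF/MultiBlast, 9 in ISM1/ISM2, 11 in KSOM(aa) and 13 in the control. The F test, which asks whether a gene differs anywhere among the 5 groups, passed for 1 gene, *Cbx1* (adjusted p = 0.013), where 18.5% of all units passed. Leaving out single arrays moved this count, for example to 4 without oviduct replicate 2, 3 without ISM1/ISM2 replicate 3 and 2 without oviduct replicate 1. The count over all units moved as well, from 1605 to 985 of 8669 without ISM1/ISM2 replicate 1. Among these fits both counts were highest without KSOM(aa) replicate 1, which leaves 1 array in that group. These counts are not read as a result about the chromatin genes.

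**Figure D2:**
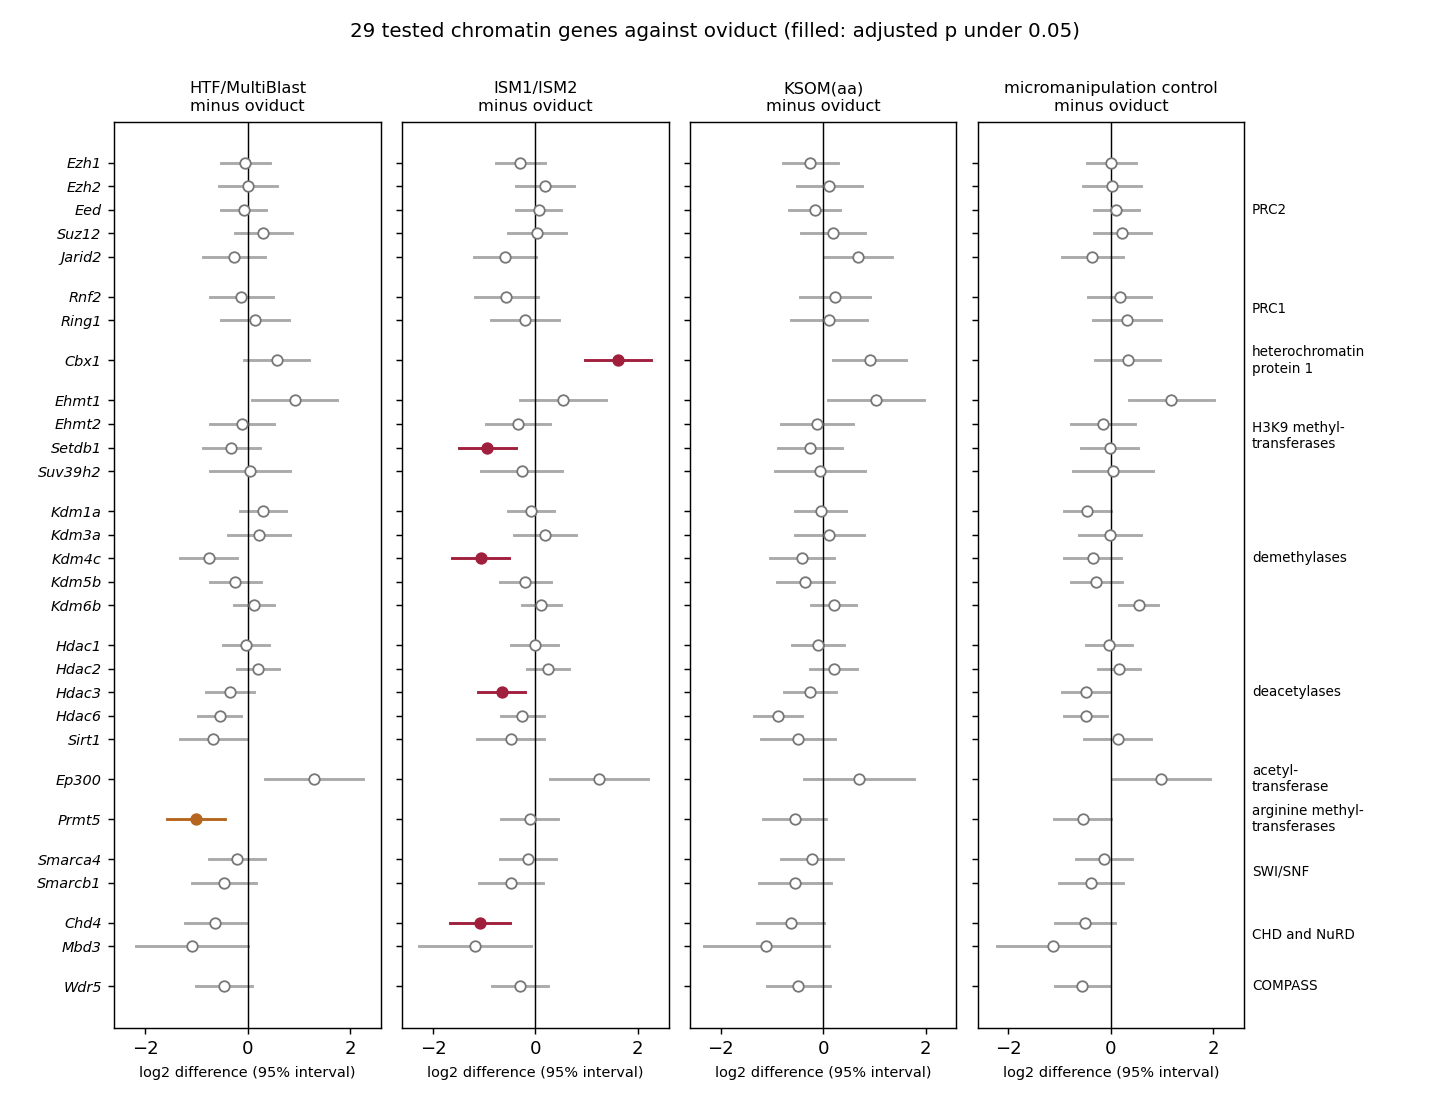
Log2 difference from oviduct (horizontal axis) of the 29 tested chromatin genes in the 4 other groups, ordered by complex, with 95% intervals. Filled points mark adjusted p under 0.05, and these are *Prmt5* in HTF/MultiBlast and *Cbx1*, *Setdb1*, *Kdm4c*, *Hdac3* and *Chd4* in ISM1/ISM2.

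The largest difference among the chromatin genes that passed was in *Cbx1*, which encodes heterochromatin protein 1 beta, a reader of methylated H3K9. Its log2 normalized intensity was 7.61, 7.51 and 8.28 in ISM1/ISM2, against 6.51, 6.25 and 5.80 in oviduct. The 3 ISM1/ISM2 arrays lay above the 3 oviduct arrays without overlap. *Cbx1* was 3.06-fold higher in ISM1/ISM2 than in oviduct (log2 difference 1.61 ± 0.30 SE, adjusted p = 0.00168), and it passed under 26 of 26 alternative settings. The remaining groups had 7.04, 6.67 and 6.54 in HTF/MultiBlast, 7.64 and 6.56 in KSOM(aa), and 6.58, 6.37 and 6.59 in the micromanipulation control. Of these groups, HTF/MultiBlast and KSOM(aa) also lay above oviduct array by array, with log2 differences of 0.56 (adjusted p = 0.279) and 0.91 (adjusted p = 0.286), neither of which passed.

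The excess of *Cbx1* in ISM1/ISM2 was also tested directly against the other groups. *Cbx1* was 2.44-fold higher in ISM1/ISM2 than in the micromanipulation control (log2 difference 1.29 ± 0.30 SE, adjusted p = 0.00898). With the 3 control arrays averaged into 1, as their shared replicate number may warrant, the adjusted p was 0.187. Against HTF/MultiBlast the log2 difference was 1.05 ± 0.30 SE, at the threshold (adjusted p = 0.0499), and it passed in 11 of 26 alternatives. It did not pass without HTF/MultiBlast replicate 1, 2 or 3 (adjusted p = 0.062, 0.158 and 0.161), without ISM1/ISM2 replicate 1, 2 or 3 (0.0941, 0.0613 and 0.165), without oviduct replicate 2 (0.0623), or without control replicate 1, 2 or 3 (0.0702, 0.0695 and 0.0715). Against KSOM(aa) the difference of 0.70 did not pass (adjusted p = 0.196), and the KSOM(aa) arrays of 7.64 and 6.56 overlapped the ISM1/ISM2 range.

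*Setdb1*, the H3K9 methyltransferase that silences endogenous retroviruses, was lower in ISM1/ISM2 blastocysts. It measured 7.20, 6.94 and 6.97 in ISM1/ISM2, against 8.09, 8.08 and 7.76 in oviduct. The arrays of the groups did not overlap, and the fall was 1.92-fold (log2 difference -0.94 ± 0.26 SE, adjusted p = 0.0167). The micromanipulation control measured 7.79, 7.91 and 8.17, with 2 arrays inside the oviduct range and replicate 3 above it, and ISM1/ISM2 was 1.89-fold lower than that control as well (log2 difference -0.91 ± 0.26 SE, adjusted p = 0.0265). HTF/MultiBlast measured 7.55, 7.67 and 7.76, between the ISM1/ISM2 and oviduct means, and its difference from oviduct of -0.32 did not pass (adjusted p = 0.496). KSOM(aa) measured 7.11 and 8.32, 1 array among the ISM1/ISM2 values and 1 above every oviduct array. The call against oviduct did not hold without ISM1/ISM2 replicate 2 (adjusted p = 0.0559). The call against the control did not hold without ISM1/ISM2 replicate 2 (0.0809) or 3 (0.0729), without control replicate 2 (0.0693) or 3 (0.106), or with the control arrays averaged (0.304).

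The other H3K9 methyltransferases did not pass in any comparison. *Ehmt2* (G9a), which places the dimethyl mark, had group means of 9.13 in HTF/MultiBlast, 8.90 in ISM1/ISM2, 9.13 in KSOM(aa), 9.09 in the control and 9.24 in oviduct (SD 0.21 to 0.91, n = 3, 2 in KSOM(aa)). Its differences from oviduct were -0.11 in HTF/MultiBlast, -0.35 in ISM1/ISM2, -0.12 in KSOM(aa) and -0.16 in the control. A second *Ehmt2* probe gave -0.05 in HTF/MultiBlast, -0.15 in ISM1/ISM2, -0.11 in KSOM(aa) and -0.12 in the control. *Ehmt1* (GLP), the partner of G9a, had positive differences from oviduct in 4 of 4 groups, 0.92 in HTF/MultiBlast (adjusted p = 0.173), 0.54 in ISM1/ISM2 (0.33), 1.03 in KSOM(aa) (0.349) and 1.18 in the control (0.163). The control measured 8.56, 8.58 and 8.56 for *Ehmt1*, against 7.76, 7.88 and 6.53 in oviduct. *Suv39h2*, which trimethylates H3K9 in pericentric heterochromatin, was detected on 6 of 14 arrays and on 0 of 3 ISM1/ISM2 arrays, and its differences from oviduct, -0.27 to 0.05, did not pass.

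Among the demethylases, *Kdm4c*, which removes methyl groups from H3K9 and H3K36, was lower in ISM1/ISM2. It measured 5.28, 5.54 and 6.42 in ISM1/ISM2, against 6.64, 6.81 and 6.97 in oviduct. The groups did not overlap, although ISM1/ISM2 replicate 3 lay close to the lowest oviduct array, and the probe was detected on 2 of 3 ISM1/ISM2 arrays and 3 of 3 oviduct arrays. The fall was 2.09-fold (log2 difference -1.06 ± 0.26 SE, adjusted p = 0.0089). With only those groups in the fit the adjusted p was 0.0534. HTF/MultiBlast, at 5.95, 6.17 and 6.03, also lay below every oviduct array, with a log2 difference of -0.76 that did not pass (adjusted p = 0.1). It passed without ISM1/ISM2 replicate 3 (adjusted p = 0.0341). KSOM(aa), at 6.21 and 6.57, was below oviduct too (-0.42, adjusted p = 0.586), and the control overlapped it (6.42, 6.26 and 6.66, difference -0.36).

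The remaining 4 measured demethylases did not pass against oviduct. *Kdm1a* (LSD1), which acts on H3K4 as part of CoREST complexes, was at 10.82 in HTF/MultiBlast, 10.43 in ISM1/ISM2, 10.47 in KSOM(aa), 10.06 in the control and 10.52 in oviduct (SD 0.10 to 0.29, n = 3, 2 in KSOM(aa)). *Kdm6b*, an H3K27 demethylase, was 0.54 higher in the control than in oviduct with 0 overlap between arrays (9.62, 9.48 and 9.33, against 8.85, 9.03 and 8.92), yet did not pass (adjusted p = 0.166). *Kdm5b*, an H3K4 demethylase, had differences from oviduct between -0.35 and -0.19. *Kdm3a*, an H3K9 demethylase, had 3 probes detected on 14 arrays that differed in sign in HTF/MultiBlast (0.22, -0.16 and -0.81), so its direction there is uncertain.

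**Figure D3:**
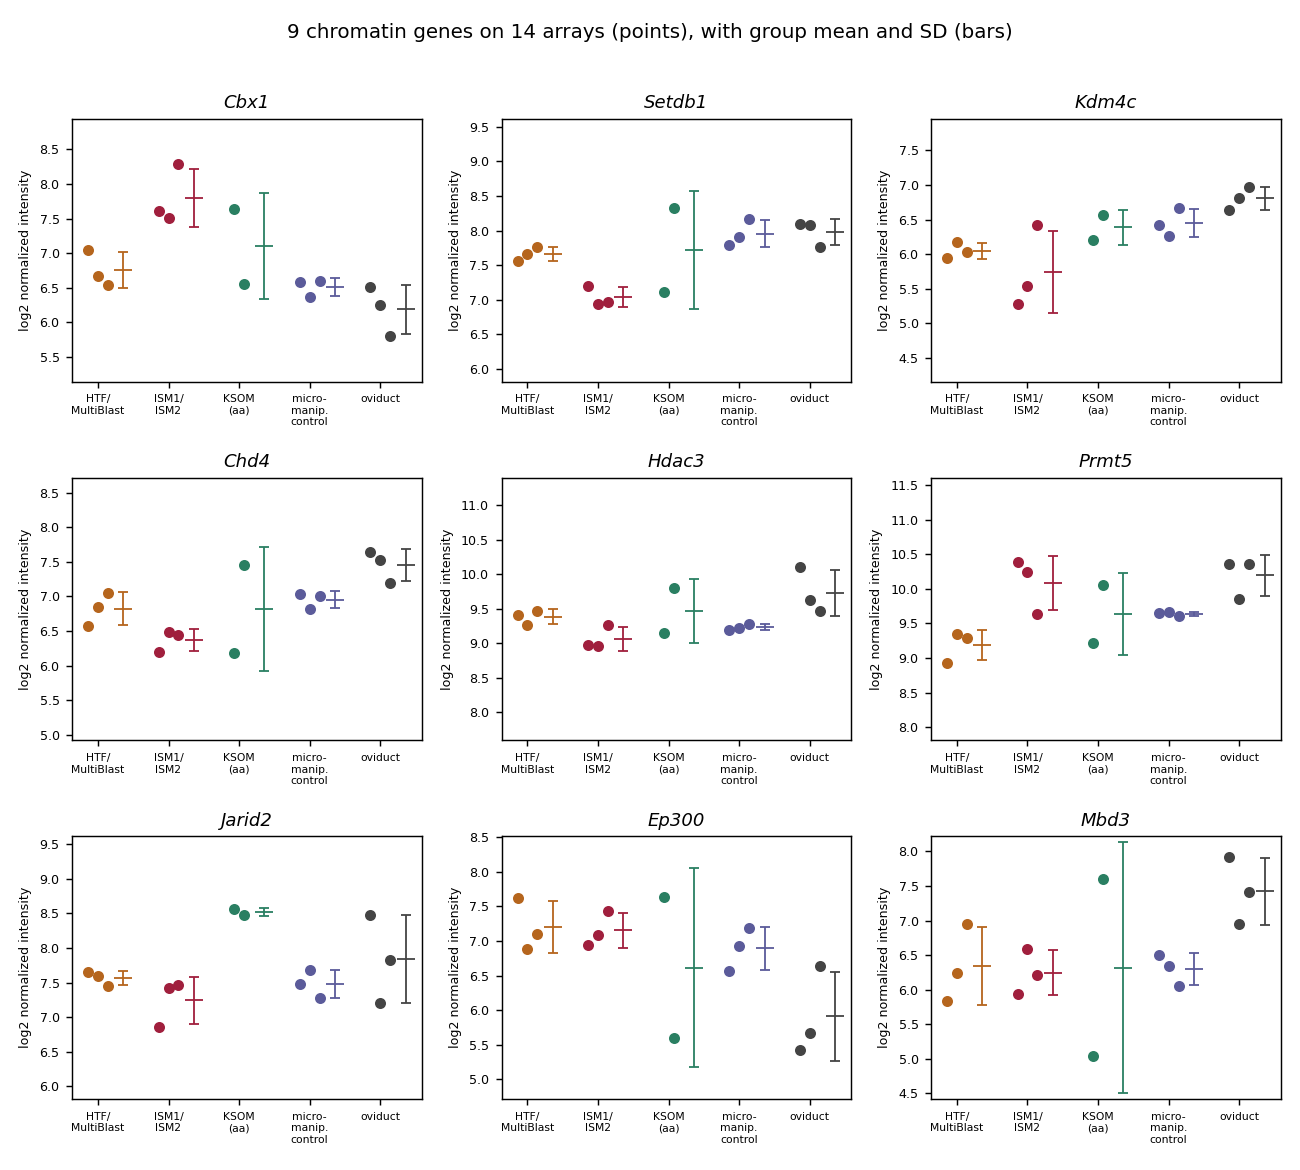
Log2 normalized intensity (vertical axes, a separate scale per gene) of 9 chromatin genes on 14 arrays, with points for arrays and bars for the group mean and SD. *Cbx1* in ISM1/ISM2 sits between 7.51 and 8.28, above oviduct at 5.80 to 6.51, while *Setdb1*, *Kdm4c*, *Hdac3* and *Chd4* in ISM1/ISM2 sit below their oviduct arrays. The 2 KSOM(aa) points are far apart for *Mbd3*, *Ep300* and *Chd4* and close together for *Jarid2*.

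The 5 deacetylases remove acetyl groups from histones or, for *Hdac6* and *Sirt1*, also from other proteins. *Hdac3*, the catalytic subunit of NCoR and SMRT corepressor complexes, measured 8.97, 8.96 and 9.27 in ISM1/ISM2, against 10.10, 9.62 and 9.46 in oviduct. The arrays did not overlap, and the fall was 1.58-fold (log2 difference -0.66 ± 0.21 SE, adjusted p = 0.0367). It passed in 13 of 26 alternatives. It did not pass without ISM1/ISM2 replicate 1 or 2 (adjusted p = 0.108 for each), without oviduct replicate 1 (0.118) or 2 (0.0536), without HTF/MultiBlast replicate 3 (0.0505), or without control replicate 1, 2 or 3 (0.0513, 0.0532 and 0.0512). The other groups lay at 9.41, 9.26 and 9.47 in HTF/MultiBlast, 9.15 and 9.80 in KSOM(aa), and 9.20, 9.23 and 9.28 in the control, with differences from oviduct of -0.34 in HTF/MultiBlast, -0.25 in KSOM(aa) and -0.49 in the control that did not pass.

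*Hdac1* and *Hdac2*, the paired class I enzymes of the Sin3, NuRD and CoREST complexes, differed little. *Hdac1* had group means of 9.01 in HTF/MultiBlast, 9.03 in ISM1/ISM2, 8.95 in KSOM(aa), 9.01 in the control and 9.05 in oviduct (SD 0.03 to 0.47, n = 3, 2 in KSOM(aa)). The 95% intervals of its differences from oviduct ran from -0.60 to 0.44 over the 4 groups. *Hdac2* had means of 12.45 in HTF/MultiBlast, 12.49 in ISM1/ISM2, 12.46 in KSOM(aa), 12.40 in the control and 12.25 in oviduct (SD 0.03 to 0.26), with intervals from -0.26 to 0.67. *Hdac6*, a cytoplasmic tubulin deacetylase, measured 7.05 and 6.74 in KSOM(aa), against 8.0, 7.38 and 7.94 in oviduct. Its KSOM(aa) difference of -0.88 ± 0.22 SE did not pass (adjusted p = 0.129) and passed without oviduct replicate 2 (adjusted p = 0.0398). The second *Hdac6* probe had the same sign in KSOM(aa) (-0.58) and the opposite sign in HTF/MultiBlast (0.18, beside -0.55), ISM1/ISM2 (0.17, beside -0.25) and the control (0.14, beside -0.49). *Sirt1*, a nuclear NAD-dependent deacetylase, differed from oviduct by -0.67 in HTF/MultiBlast, -0.48 in ISM1/ISM2, -0.49 in KSOM(aa) and 0.13 in the control, none of which passed.

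*Ep300*, which encodes the acetyltransferase p300, was the only acetyltransferase of the list that was measured, and *Mbd3*, a NuRD subunit, showed the opposite sign. Both lie outside the rule for full description and were chosen after their values were seen. *Ep300* measured 7.62, 6.88 and 7.10 in HTF/MultiBlast, 6.95, 7.08 and 7.44 in ISM1/ISM2, 7.63 and 5.59 in KSOM(aa) and 6.57, 6.93 and 7.19 in the control, against 5.43, 5.67 and 6.64 in oviduct. HTF/MultiBlast and ISM1/ISM2 did not overlap oviduct, whereas KSOM(aa) and the control did. The differences from oviduct were 1.29 in HTF/MultiBlast (adjusted p = 0.101), 1.24 in ISM1/ISM2 (0.0544), 0.70 in KSOM(aa) (0.596) and 0.98 in the control (0.279). The SE was 0.44 except for KSOM(aa), where it was 0.49, and none passed. In ISM1/ISM2 the adjusted p was 0.0237 without oviduct replicate 3 and 0.00934 without either KSOM(aa) array. In HTF/MultiBlast it was 0.0235 without either KSOM(aa) array.

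*Mbd3* measured 5.83, 6.24 and 6.95 in HTF/MultiBlast, 5.94, 6.59 and 6.21 in ISM1/ISM2, 5.04 and 7.60 in KSOM(aa) and 6.50, 6.34 and 6.05 in the control, against 7.92, 6.95 and 7.41 in oviduct. ISM1/ISM2 and the control did not overlap oviduct. The differences were -1.08 in HTF/MultiBlast (adjusted p = 0.223), -1.18 in ISM1/ISM2 (0.104), -1.11 in KSOM(aa) (0.447) and -1.13 in the control (0.279), and none passed. Leaving out either KSOM(aa) array gave an adjusted p of 0.0461 in HTF/MultiBlast and 0.0124 in ISM1/ISM2. The KSOM(aa) SD of 1.81 for this gene was the highest of any chromatin gene in any group, and it enters the variance shared by all comparisons. With a single KSOM(aa) array left, that group adds nothing to the variance. Leaving out one or the other therefore gives the same p-value in comparisons without KSOM(aa).

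Among the remodelers, *Chd4*, the ATPase of the NuRD complex, was lower in ISM1/ISM2. It measured 6.19, 6.48 and 6.45 in ISM1/ISM2, against 7.64, 7.53 and 7.20 in oviduct. The groups were well separated, and the fall was 2.12-fold (log2 difference -1.08 ± 0.27 SE, adjusted p = 0.0111). HTF/MultiBlast (6.57, 6.85 and 7.05) and the control (7.03, 6.82 and 7.01) lay between them, below every oviduct array, with differences of -0.63 (adjusted p = 0.188) and -0.50 (adjusted p = 0.374) that did not pass. KSOM(aa) measured 6.18 and 7.46, at the ISM1/ISM2 and at the oviduct level. The direct differences of *Chd4* between ISM1/ISM2 and the other groups did not pass, with -0.45 against HTF/MultiBlast (adjusted p = 0.374), -0.45 against KSOM(aa) (0.386) and -0.58 against the control (0.173). The difference from the control passed in 5 of 26 alternatives, among them without either KSOM(aa) array (adjusted p = 0.045), and the difference from KSOM(aa) passed without KSOM(aa) replicate 1 (0.0184).

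*Smarca4* (BRG1), the SWI/SNF ATPase, had group means of 7.53 in HTF/MultiBlast, 7.58 in ISM1/ISM2, 7.51 in KSOM(aa), 7.59 in the control and 7.73 in oviduct (SD 0.14 to 0.60, n = 3, 2 in KSOM(aa)). Its 95% intervals against oviduct ran from -0.83 to 0.41. *Smarcb1*, a core SWI/SNF subunit, differed from oviduct by -0.47 in HTF/MultiBlast, -0.48 in ISM1/ISM2, -0.55 in KSOM(aa) and -0.38 in the control, none of which passed. *Wdr5*, the shared subunit of the COMPASS H3K4 methyltransferases, differed from oviduct by -0.45 in HTF/MultiBlast, -0.29 in ISM1/ISM2, -0.48 in KSOM(aa) and -0.55 in the control. The control arrays of *Wdr5* (9.52, 9.58 and 9.59) lay below those of oviduct (9.81, 10.37 and 10.17) without overlap, at an adjusted p of 0.285.

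*Prmt5*, which places symmetric dimethyl marks on arginines of histones and splicing proteins, was lower in HTF/MultiBlast. It measured 8.93, 9.34 and 9.28 in HTF/MultiBlast, against 10.36, 9.85 and 10.36 in oviduct. The arrays did not overlap, and the fall was 2.01-fold (log2 difference -1.01 ± 0.26 SE, adjusted p = 0.0379). A second probe, also detected on 14 arrays, gave -1.09, with an adjusted p of 0.104 over all tested probes. ISM1/ISM2 measured 10.38, 10.24 and 9.63, with replicate 1 above, replicate 2 inside and replicate 3 below the oviduct range, and its difference from HTF/MultiBlast of 0.90 ± 0.26 SE stood just above the threshold (adjusted p = 0.0535). That difference passed in 11 of 26 alternatives, among them without ISM1/ISM2 replicate 3 (0.0279), oviduct replicate 3 (0.0494) or either KSOM(aa) array (0.0277). The control arrays (9.65, 9.66 and 9.61) lay between the HTF/MultiBlast and oviduct arrays. KSOM(aa) had 1 array in the HTF/MultiBlast range and 1 in the oviduct range (9.21 and 10.06). The differences from oviduct of -0.56 in KSOM(aa) and -0.55 in the control did not pass.

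The *Prmt5* call passed in 10 of 26 alternatives. It did not pass without HTF/MultiBlast replicate 1, 2 or 3 (adjusted p = 0.163, 0.0632 and 0.0928), without oviduct replicate 1 or 3 (0.0844 and 0.0931), without ISM1/ISM2 replicate 2 (0.0514), or without control replicate 1, 2 or 3 (0.0571, 0.0579 and 0.0562). With 75th percentile scaling in place of quantile normalization the log2 difference was -0.77 (adjusted p = 0.0851), and with the replicate number as a block the adjusted p was 0.0557. In every one of these settings *Prmt5* remained lower in HTF/MultiBlast than in oviduct.

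PRC2 genes did not pass against oviduct. *Suz12* and *Eed* are core subunits of the complex, and *Ezh2* and *Ezh1* are its alternative catalytic subunits. *Eed* had means of 11.68 in HTF/MultiBlast, 11.82 in ISM1/ISM2, 11.59 in KSOM(aa), 11.86 in the control and 11.76 in oviduct (SD 0.12 to 0.44, n = 3, 2 in KSOM(aa)), with intervals against oviduct from -0.66 to 0.55. *Ezh2* differed from oviduct by 0.00 in HTF/MultiBlast, 0.19 in ISM1/ISM2, 0.12 in KSOM(aa) and 0.02 in the control, with intervals from -0.56 to 0.75. A second *Ezh2* probe, detected on 2 of 14 arrays, gave -0.38 in HTF/MultiBlast, -0.31 in ISM1/ISM2, 0.04 in KSOM(aa) and -0.33 in the control. None of these passed. *Suz12* differed by 0.31 in HTF/MultiBlast, 0.03 in ISM1/ISM2, 0.20 in KSOM(aa) and 0.22 in the control, with intervals from -0.52 to 0.87. *Ezh1* was detected on 6 of 14 arrays and on 0 of 3 ISM1/ISM2 arrays, and differed by -0.29 to 0.00.

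*Jarid2*, the accessory subunit that helps recruit PRC2, was the exception in the complex, in a comparison between media. It measured 6.85, 7.42 and 7.46 in ISM1/ISM2, against 8.56 and 8.48 in KSOM(aa). The groups did not overlap, and *Jarid2* was 2.42-fold lower in ISM1/ISM2 (log2 difference -1.28 ± 0.31 SE, adjusted p = 0.0178). In that comparison 1 of 29 chromatin genes (3.45%) passed, where 11.6% of all units did. The count was 2 without ISM1/ISM2 replicate 3 (10.5% of all units), oviduct replicate 2 (11.4%) or oviduct replicate 3 (13.9%). It was 0 without ISM1/ISM2 replicate 1 (6.93%). Without KSOM(aa) replicate 1 the count and the share of all units were higher, and without replicate 2 both were lower. Each of these fits leaves 1 array in that group. *Jarid2* itself did not pass without ISM1/ISM2 replicate 1 (adjusted p = 0.0714), KSOM(aa) replicate 1 (0.0567) or KSOM(aa) replicate 2 (0.0672). The oviduct arrays of 8.48, 7.20 and 7.83 overlapped ISM1/ISM2 replicates 2 and 3 and reached up to the lower KSOM(aa) array without overlapping it, and neither ISM1/ISM2 (-0.59, adjusted p = 0.135) nor KSOM(aa) (0.68, adjusted p = 0.388) passed against oviduct. The 2 KSOM(aa) arrays, far apart for most chromatin genes, differed by 0.08 for *Jarid2*.

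The PRC1 ubiquitin ligases *Rnf2* and *Ring1*, which place the H2A ubiquitin mark, did not pass. *Rnf2* measured 7.82, 7.62 and 7.97 in ISM1/ISM2, below the 8.52, 8.44 and 8.66 of the control without overlap, with a log2 difference of -0.74 ± 0.29 SE (adjusted p = 0.0979). That difference passed without oviduct replicate 3 (adjusted p = 0.021). Oviduct itself measured 7.83, 8.15 and 9.13. *Ring1* had differences from oviduct of 0.15 in HTF/MultiBlast, -0.21 in ISM1/ISM2, 0.11 in KSOM(aa) and 0.31 in the control.

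Direct tests of ISM1/ISM2 against the other groups gave few chromatin calls. Against HTF/MultiBlast 1 of 29 genes (3.45%), *Cbx1*, passed, where 7.13% of all units did. That count was 2 without oviduct replicate 3 (9.08% of all units). It was higher still without either KSOM(aa) array, where the share of all units rose as well. It was 0 without HTF/MultiBlast replicate 1, 2 or 3, ISM1/ISM2 replicate 1 or 2, oviduct replicate 2, or control replicate 1, 2 or 3. In those fits 3.22% (without HTF/MultiBlast replicate 2) to 6.88% (without oviduct replicate 2) of all units passed. Against the micromanipulation control 2 genes (6.9%), *Cbx1* and *Setdb1*, passed, where 16.8% of all units did. That count was 1 without ISM1/ISM2 replicate 2 (12.6% of all units) or control replicate 2 (11.2%) or 3 (10.7%). It was 3 (10.3%) without oviduct replicate 3, beside 19.8% of all units, and rose without either KSOM(aa) array too. The differences of *Kdm4c*, *Hdac3* and *Chd4* from the control, -0.71, -0.17 and -0.58, did not pass (adjusted p = 0.0791, 0.653 and 0.173). With the 3 control arrays counted as separate samples, *Cbx1* and *Setdb1* thus passed between ISM1/ISM2 and a group other than oviduct. Single arrays moved the direct tests of the other genes as well. Against the control *Chd4* passed without either KSOM(aa) array (adjusted p = 0.045) and *Kdm4c* without ISM1/ISM2 replicate 3 (0.00572). Against KSOM(aa) *Chd4* passed without KSOM(aa) replicate 1 (0.0184) and *Kdm4c* without ISM1/ISM2 replicate 3 (0.0183). *Hdac3* passed against neither of these groups in any of the alternatives. With oviduct replicate 2 as the only oviduct array, *Setdb1*, *Kdm4c*, *Hdac3* and *Chd4* did not pass against oviduct (adjusted p = 0.0892, 0.0854, 0.206 and 0.0771).

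Markers of the blastocyst lineages moved in the same comparison as these 5 genes. In ISM1/ISM2 7 of 9 tested primitive endoderm markers were lower than in oviduct and 1 was higher, with a median log2 difference of -1.48. Their summed level, on the log2 scale, was 13.82 to 13.98 in ISM1/ISM2, against 14.28 to 14.45 in oviduct. For trophectoderm 3 of 10 tested markers were lower and 0 higher (median log2 difference -0.46), with sums of 15.20 to 15.52 in ISM1/ISM2 and 15.62 to 15.70 in oviduct. For the epiblast 2 of 7 were lower and 1 higher, with sums of 12.48 to 12.68 in ISM1/ISM2 and 12.18 to 12.47 in oviduct. The epiblast median of -0.87 was thus opposite in sign to the summed level. In HTF/MultiBlast 5 of 9 primitive endoderm markers were lower and 1 higher, with sums of 14.13 to 14.35. The part of lineage makeup in the chromatin gene differences was not tested.

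The promoters of 4 of the 5 genes that passed in ISM1/ISM2 against oviduct are shown because these genes passed together in 1 comparison. That of *Hdac3* was left out, so the motifs given gene by gene below do not cover it. The 250 bases before the transcription start were taken from RefSeq on build GRCm38.p6, where 26 of the 29 tested genes had an entry. Capitals mark matches, on either strand, to the ETS motif CCGGAAG, the NRF1 palindrome, the SP1/KLF box GGGCGG, the CCAAT box, the E-box CACGTG, the CRE core TGACGT, the ATF4 and CEBP element TGATGNAAT and the TATA box TATAAA. No matches overlapped. For *Chd4* and *Kdm4c* the second of the listed starts is shown, since the first held 2 SP1/KLF boxes alone in *Chd4* and no match in *Kdm4c*. That choice was made on the matches, so the motifs of these promoters cannot be read against shares over all promoters.
Cbx1, chr11:96788885-96789134, plus strand: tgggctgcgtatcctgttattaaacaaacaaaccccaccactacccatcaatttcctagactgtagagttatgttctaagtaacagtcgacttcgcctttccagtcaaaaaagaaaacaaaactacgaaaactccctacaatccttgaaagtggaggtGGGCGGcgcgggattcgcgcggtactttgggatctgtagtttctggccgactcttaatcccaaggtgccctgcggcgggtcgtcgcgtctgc
Setdb1, chr3:95357203-95357452, minus strand: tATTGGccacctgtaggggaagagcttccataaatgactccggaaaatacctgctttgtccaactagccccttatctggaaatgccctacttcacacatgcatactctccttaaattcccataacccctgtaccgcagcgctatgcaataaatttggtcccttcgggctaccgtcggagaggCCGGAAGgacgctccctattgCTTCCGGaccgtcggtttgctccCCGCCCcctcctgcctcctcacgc
Chd4, chr6:125095913-125096162, plus strand: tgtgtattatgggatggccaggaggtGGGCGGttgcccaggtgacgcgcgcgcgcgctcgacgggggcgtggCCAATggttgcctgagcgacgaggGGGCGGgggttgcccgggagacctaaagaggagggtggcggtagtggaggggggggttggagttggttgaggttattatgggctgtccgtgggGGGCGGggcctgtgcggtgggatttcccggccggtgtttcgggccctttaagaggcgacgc
Kdm4c, chr4:74251629-74251878, plus strand: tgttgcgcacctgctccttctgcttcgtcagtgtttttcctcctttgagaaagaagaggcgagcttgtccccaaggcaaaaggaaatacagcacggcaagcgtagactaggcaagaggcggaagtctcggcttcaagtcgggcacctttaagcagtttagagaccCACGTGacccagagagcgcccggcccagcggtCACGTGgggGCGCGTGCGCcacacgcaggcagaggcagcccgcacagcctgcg

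No motif was held by all 4 of these promoters. *Cbx1*, the gene that was higher, had 1 SP1/KLF box. *Setdb1* had 2 ETS matches on opposite strands, a reverse SP1/KLF box and a reverse CCAAT box. *Chd4* had 3 SP1/KLF boxes and 1 CCAAT box, and *Kdm4c* had 2 E-boxes and 1 NRF1 match. Over all 32851 mouse promoters of the same length, 32.7% held the SP1/KLF box, 33.8% CCAAT, 6.91% ETS, 6.02% the E-box and 3.74% NRF1. Over the 32 promoters of tested chromatin genes, 24 held the SP1/KLF box, 10 CCAAT, 2 ETS, 4 the E-box and 6 NRF1. The ATF4 and CEBP element was in 0 of these 32 promoters and in 0.816% of all. The 32 promoters had a median of 20.5 CpG dinucleotides in 250 bases, where all promoters had a median of 6. A match of letters is a description of the sequence and not a measured site.

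In KSOM(aa) the chromatin genes were spread more widely than in any other group. The root mean square SD over the 29 genes was 0.71 in KSOM(aa), 0.26 in HTF/MultiBlast, 0.28 in ISM1/ISM2, 0.18 in the control and 0.42 in oviduct. Over all units the KSOM(aa) value was 0.57. Of the 29 genes, 10 (34.5%) differed by more than 1 on the log2 scale between the KSOM(aa) arrays, and 17.6% of all units did. Replicate 1 was lower than replicate 2, with differences of -2.56 for *Mbd3*, -1.29 for *Ehmt2*, -1.28 for *Chd4* and -1.21 for *Setdb1*. It was higher, with differences of 2.04 for *Ep300*, 1.13 for *Suv39h2*, 1.08 for *Cbx1* and 1.07 for *Ehmt1*. Replicate 1 thus had high *Cbx1* and low *Setdb1* and *Chd4*, as ISM1/ISM2 did. Replicate 2 measured 6.56, 8.32 and 7.46 for these genes, beside oviduct means of 6.19, 7.98 and 7.45. The likeness did not hold for every gene, as *Jarid2* was 8.56 in replicate 1 and 6.85 to 7.46 in ISM1/ISM2. Over all units replicate 1 differed by a root mean square of 0.78 to 0.83 from the ISM1/ISM2 arrays and 0.48 to 0.53 from the control arrays.

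The absence of calls in KSOM(aa) depended on single arrays. Without KSOM(aa) replicate 2, 4 chromatin genes passed against oviduct, *Cbx1* (adjusted p = 0.0443), *Chd4* (0.0298), *Mbd3* (0.0211) and *Wdr5* (0.0439). That was 13.8% of the 29 genes, where 3.3% of all units passed in the same setting. Without oviduct replicate 2, 1 gene (3.45%), *Hdac6*, passed (0.0398), where 0.6% of all units did. With 1 array left, the lone sample is assumed to vary like the other groups. With KSOM(aa) replicate 2 and oviduct replicate 3 both left out, a setting chosen after the values were seen, *Setdb1* and *Ep300* passed as well as *Cbx1*, *Chd4*, *Mbd3* and *Wdr5* (20.7%, where 6.31% of all units passed). Whether KSOM(aa) replicate 1 or replicate 2 is the typical array cannot be told apart with 2 arrays.

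**Figure D4:**
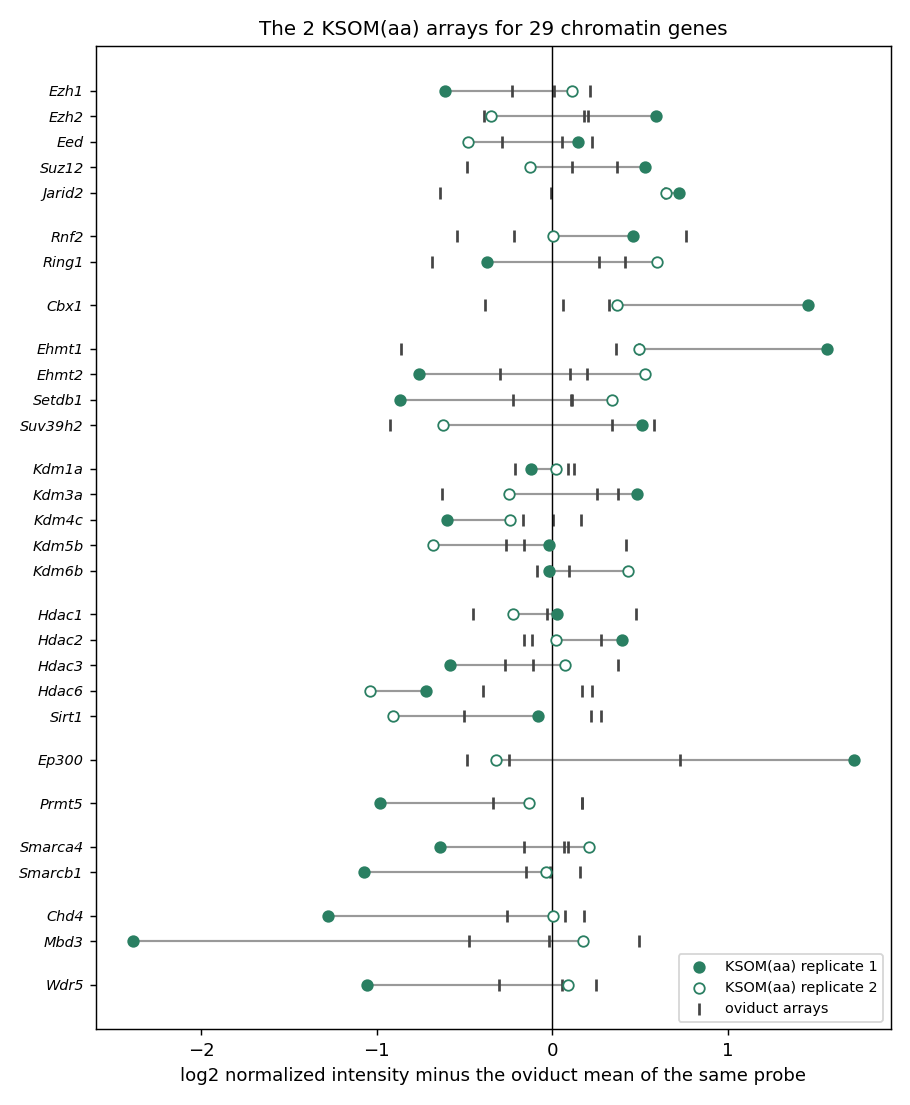
Log2 normalized intensity of the 2 KSOM(aa) arrays minus the oviduct mean of the same probe (horizontal axis) for the 29 tested chromatin genes, with the 3 oviduct arrays as ticks. Replicate 1 (filled) and replicate 2 (open) lie more than 1 apart for 10 genes, most of all *Mbd3* and *Ep300*, and almost coincide for *Jarid2*.

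The micromanipulation control had the narrowest spread of the 5 groups. Its largest differences from oviduct were 1.18 in *Ehmt1* (adjusted p = 0.163) and -1.13 in *Mbd3* (0.279). Arrays that did not overlap oviduct, as for *Kdm6b*, *Hdac3*, *Prmt5* and *Chd4*, did not pass after adjustment. If the 3 control arrays are repeats of 1 sample, their spread leaves out the variation between samples. That spread enters the variance shared by all comparisons. With those arrays averaged into 1, the calls of *Prmt5* in HTF/MultiBlast and *Hdac3* in ISM1/ISM2 against oviduct did not hold. The F test call of *Cbx1* did not hold in that setting either.

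Other genes of the same complexes, 146 genes by a list chosen with earlier results of these data known, gave 81 tested genes. In ISM1/ISM2 19 of the 81 (23.5%) passed against oviduct, 7 higher and 12 lower, beside 25.8% of all units. In HTF/MultiBlast 3 (3.7%) passed, all lower, beside 6.18%. In KSOM(aa) and the control 0 passed in limma, with 4 and 13 at an unadjusted p under 0.05. The median log2 differences over the 81 genes were -0.04 in HTF/MultiBlast, -0.09 in ISM1/ISM2, 0.00 in KSOM(aa) and 0.04 in the control.

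The smallest p-values among these companions in ISM1/ISM2 minus oviduct were those of *Rcor2*, *Cbx7* and *Kat2a*. *Rcor2*, a CoREST scaffold that binds LSD1, was detected on 0 of 3 ISM1/ISM2 arrays and 3 of 3 oviduct arrays, with means of 4.93 and 6.78, so the fall was at least 2.65-fold (adjusted p = 8.9e-05). "At least" sets the oviduct mean against the lowest detected signal of the ISM1/ISM2 arrays or the probe's own signal, whichever was higher. *Rcor2* was also lower in HTF/MultiBlast, with a mean of 5.91, against 6.78 in oviduct (adjusted p = 0.0426). *Cbx7*, a PRC1 chromodomain protein, averaged 6.52 in ISM1/ISM2 and 8.0 in oviduct (log2 difference -1.48 ± 0.23 SE, adjusted p = 0.000542). *Kat2a* (GCN5), an acetyltransferase, was detected on 0 of 3 ISM1/ISM2 arrays and was at least 2.3-fold lower than in oviduct (adjusted p = 0.00187). In HTF/MultiBlast *Kat2a* averaged 5.45 and *Arid2*, a SWI/SNF subunit, 7.61, against 6.58 and 8.91 in oviduct (adjusted p = 0.0452 and 0.0273).

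Some companions outside the naming rule were chosen after their values were seen. The 3 H4K20 methyltransferases were lower together in ISM1/ISM2 than in oviduct. *Kmt5a* differed by -0.995 (adjusted p = 0.0197), *Kmt5b* by -1.06 (0.0104) and *Kmt5c* by -1.04 (0.0324). *Kmt5b* also differed from HTF/MultiBlast (-1.08), KSOM(aa) (-1.45) and the control (-1.496), at adjusted p-values of 0.0261, 0.00734 and 0.00172. Genes that were higher in ISM1/ISM2 than in oviduct included *Kdm1b* (LSD2), an H3K4 demethylase of growing oocytes, with a log2 difference of 1.96 ± 0.51 SE (adjusted p = 0.0129). *Smarca2* (BRM), the alternative SWI/SNF ATPase, averaged 9.61 in ISM1/ISM2 and 8.11 in oviduct (log2 difference 1.497 ± 0.34 SE, adjusted p = 0.00626), while *Smarca4* did not pass. *Dpy30*, a COMPASS subunit, was 2.31-fold higher (adjusted p = 0.00564), while *Wdr5* of the same complex did not pass and *Kmt2b*, one of its catalytic subunits, was 1.94-fold lower (adjusted p = 0.0108).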

How the data were processed

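The deposited intensity of a probe is its raw bead average from BeadStudio 3.2, before background correction and normalization, per the submitters' processing notes. The deposited detection p-values set each signal against the array's negative controls. The authors' log2 values, for which the notes name lumi and RMA without an order, have an array median of 2.89 and order probes within each array as the intensities do, so their direction is known while their offset and centring are unknown. They served as an alternative. RNA input was 150 ng with 12 h of transcription, per the labels.

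Background correction, quantile normalization and log2 were done by neqc (limma 3.58.1, R 4.3.3, offset 16, which shrinks differences of dim probes). A probe detected at p under 0.01 on at least 2 arrays was tested (10975 of 25697), each gene by its brightest such probe, and levels were not compared between probes. The annotation gave 1 gene symbol for 23978 probes and none for 1719. One limma model over the 5 groups (9 residual and 4.32 prior degrees of freedom) gave two-sided tests, adjusted over 8669 units, with a median SE of 0.256, or 0.286 with KSOM(aa). The steps were tested on simulated data.

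The members, the companion and marker lists and the tests were chosen with earlier results of these data known. Genes were described in full if they passed in the F test or in a comparison with oviduct, and up to 3 companions per such comparison were named. The main fit did not pair the arrays by replicate number, and whether the numbers are a pairing was not settled. The 26 alternatives covered normalization, offset, probe filter and choice, samples in the fit, array weights, the replicate block, averaging the control, single arrays left out and arrays that stand apart. Leaving out KSOM(aa) replicate 1 or replicate 2 gives the same p-values in comparisons without KSOM(aa), yet counts there as 2 alternatives. The files name no slides, so slide as a block was not run.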

Additional observations from a re-analysis of the deposited data

How the results depend on the processing

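No chromatin gene changed direction in any of the alternatives for the calls given above. With single arrays left out, each count below that rose above 0 reached its highest value without a KSOM(aa) array. ISM1/ISM2 minus the control reached that value without oviduct replicate 3 as well. Leaving out a KSOM(aa) array leaves 1 array in that group. In each of these fits more of all units passed than in the main fit. These upper ends are therefore not read as a result about the chromatin genes. Counts of chromatin genes past the test moved as follows, with single arrays left out first. They ran from 0 to 3 in HTF/MultiBlast minus oviduct, 3 to 7 in ISM1/ISM2 minus oviduct, 0 to 4 in KSOM(aa) minus oviduct, 0 to 0 in the control minus oviduct, 0 to 3 in ISM1/ISM2 minus HTF/MultiBlast, 0 to 4 minus KSOM(aa), 1 to 3 minus the control, and 1 to 7 in the F test.

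The settings given next leave at least 2 arrays in each group. HTF/MultiBlast minus oviduct gave 0 with the authors' log2 values (4.86% of all units) and 75th percentile scaling (6.76%). It also gave 0 with all probes kept (1.91%) and the 2 groups alone (2.99%). With array weights it gave 4 (13.8%), where 11.5% of all units passed. ISM1/ISM2 minus oviduct gave 4 (13.8%) with 75th percentile scaling, beside 25.3% of all units, and 6 (20.7%) with array weights, beside 31.9%. The control minus oviduct gave 2 (6.9%) with array weights, beside 5.65% of all units. ISM1/ISM2 minus HTF/MultiBlast gave 0 with the authors' values (5.93% of all units), all probes kept (2.87%) and every probe its own unit (6.31%). It gave 2 with an offset of 50 (6.9%, beside 8.12%) and the 2 groups alone (6.9%, beside 9.07%). It also gave 2 with probes detected on all arrays (8.33%, beside 7.6%). With array weights it gave 3 (10.3%, beside 18%). ISM1/ISM2 minus KSOM(aa) gave 0 with the 2 groups alone (3.03% of all units) and with array weights (4%). ISM1/ISM2 minus the control gave 4 (13.8%) with the 2 groups alone, beside 26.3% of all units, and 9 (31%) with array weights, beside 32.6%. The F test gave 2 with 75th percentile scaling and probes detected on all arrays, and 3 with an offset of 50. In the main fit 18.5% of all units passed it. With array weights it gave 10, where 3014 of 8669 units passed. The cause was not tested.

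With the replicate block, HTF/MultiBlast minus oviduct gave 0 genes (5.5% of all units), ISM1/ISM2 minus oviduct 5 (17.2%, beside 25.8%) and the F test 2. *Prmt5* in HTF/MultiBlast (adjusted p = 0.0557) and *Hdac3* in ISM1/ISM2 (0.0559) no longer passed, and *Ep300* in ISM1/ISM2 did (0.0475). In deviations from the group means, 8 of 26 same-numbered pairs correlated over 0.1 (range -0.36 to 0.43). Of 14 arrays, 6 correlated best with an array of their own number. These values cannot decide whether the numbers pair the arrays, since deviations from means of 2 or 3 arrays depend on one another. Of 193 chromatin gene comparisons that did not pass, 36 passed under at least 1 alternative. Dim signal limits *Ezh1* and *Suv39h2*, detected on 6 of 14 arrays each.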
